A study of Mus musculus with 78 samples.

Results

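At 5 weeks of age the livers of Npc1-/- mice carried far more mRNA of genes of lipid-laden macrophages than those of Npc1+/+ mice, more mRNA of lysosomal enzymes and proton pump subunits, and more mRNA of the cholesterol-making enzymes. A smaller set of genes was lower, led by hepatocyte genes for transporters, esterases, sulfotransferases and sex-biased secreted proteins, and by the Kupffer cell receptor gene Cd163. The comparison rests on 8 of the 78 arrays of the series, chosen by their titles: 4 livers of 5-week-old Npc1-/- mice and 4 of 5-week-old Npc1+/+ mice, 1 liver per array. It was made across all genes, of which 12638 were tested.

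Mice of both genotypes were females of the BALB/cNctr-Npc1m1N/J line, born to Npc1+/- parents, weaned at 3 weeks onto normal chow and killed at 5 weeks. The labels call the Npc1-/- mice of this age post-symptomatic and the Npc1+/+ mice asymptomatic. Livers had been frozen on dry ice, and RNA of whole liver was labelled and hybridised to an Affymetrix mouse array that reads 35556 probe sets. The Npc1m1N allele is a spontaneous, germline loss of function, so every cell type of the mouse lacks working NPC1. NPC1 sits in the limiting membrane of late endosomes and lysosomes. It takes cholesterol from the small luminal protein NPC2 and passes it out to the rest of the cell. Without it, cholesterol from lipoproteins stays in the lysosome while the endoplasmic reticulum, which senses cholesterol through the SREBP-2 pathway, receives too little. In the liver the disease, Niemann-Pick type C, is known for foamy macrophages and hepatocytes filled with stored lipid.

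Levels are log2 expression values as deposited, given for mice 1 to 4 of a genotype by the replicate number in the title. Differences are Npc1-/- minus Npc1+/+ on the same log2 scale, with the standard error (SE) of a fit to 48 arrays of 12 groups (both genotypes at 6 ages). A gene was called higher or lower when its limma p-value, adjusted by Benjamini-Hochberg over the 12638 genes, was under 0.05. Below, rose and fell stand for higher and lower in Npc1-/- than in Npc1+/+ liver of the same age, not for a change with age. Values under 5.54, the median of all values, may be background, and the size of a change that starts or ends there is uncertain. The 8 arrays had medians of 5.51 to 5.59 and correlated with each other at r = 0.962 to 0.991 across genes. In whole liver, fewer cells of a type and less RNA per cell cannot be told apart.

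Of the 12638 genes, 1588 (12.6%) were called at 5 weeks: 1224 (9.69%) higher and 364 (2.88%) lower in Npc1-/- liver. The median difference over all genes was 0.01. Of the called genes 186 differed at least 2-fold, 137 of them higher and 49 lower, and at least 4-fold there were 17 higher and 8 lower. The ranges of the 4 and 4 mice did not overlap for 1924 genes (15.2%), among them 1011 of the genes called higher and 243 of those called lower. Gene lists for pathways and cell types, 63 in all, held 766 of the tested genes, and 215 of these were called higher and 62 lower. The plot of list members shows where the calls lay.

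**Figure D1:**
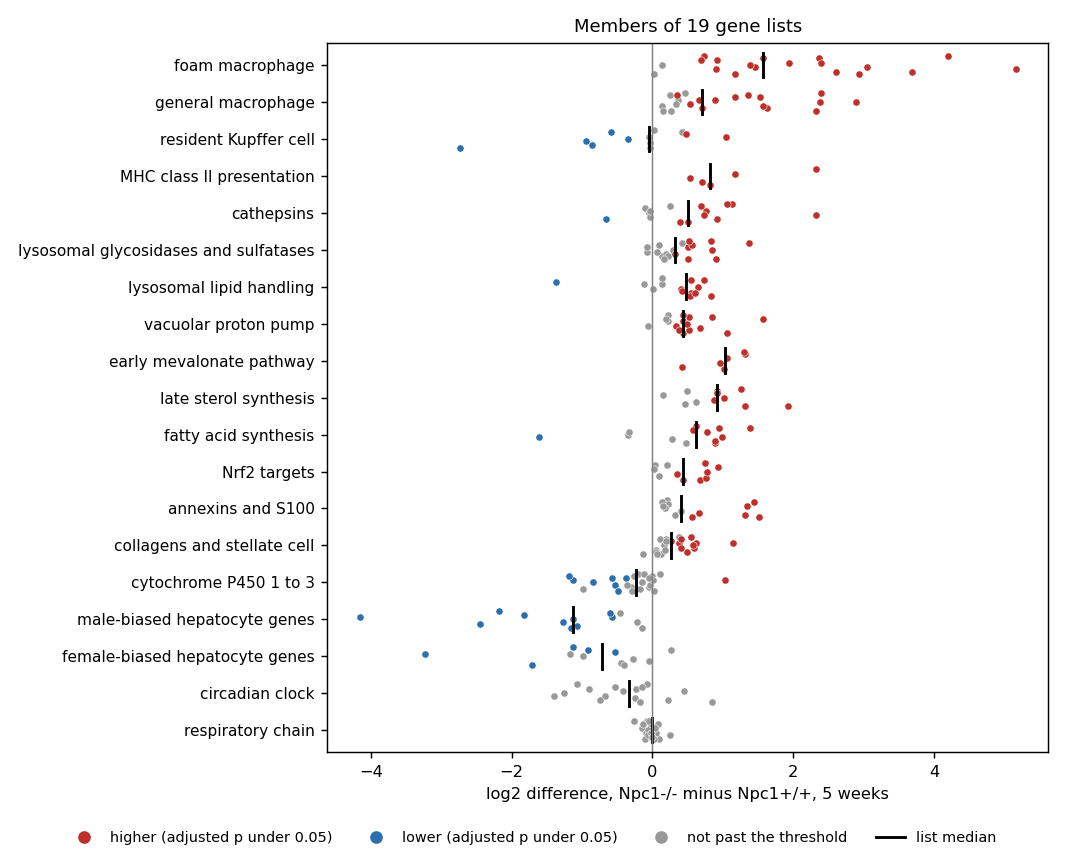
Each point is a tested gene of 1 of 19 lists, placed by its log2 difference (Npc1-/- minus Npc1+/+, 5 weeks), red if called higher, blue if called lower and grey if not called, with a black bar at the list's median. The foam macrophage list reaches furthest to the right, with a median of 1.57, the male-biased hepatocyte genes lie furthest to the left, with a median of -1.12, and the respiratory chain genes sit around 0 with a median of -0.01.

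Npc1 itself, the gene of the mutation, was lower in every Npc1-/- liver. Its level was 9.03, 8.31, 8.62 and 8.59 in Npc1-/- mice, against 9.63, 10.25, 10.16 and 9.96 in Npc1+/+ mice. The ranges did not overlap, and the difference was -1.36 ± 0.16 (adjusted p = 9.17e-09). Npc1 mRNA was thus still read in the Npc1-/- livers at a level above the median of all values. The sources used here do not place the Npc1 probe set with respect to the mutated site, and so this is a partial check of the labels. Npc2, whose product hands cholesterol to NPC1, rose by 0.64 ± 0.08 (adjusted p = 1.86e-07).

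Many of the genes that rose most are known as genes of macrophages that have taken up lipid. Of 19 tested genes of this foam macrophage list 17 rose and 0 fell. In all 17 every Npc1-/- mouse lay above every Npc1+/+ mouse. The list was drawn up with earlier results of these data known. Its counts and median describe the genes and are not independent support. Members close to background in Npc1+/+ livers could rise but hardly fall. The list's median difference was 1.57, beside 0.01 over all genes. Gpnmb, a transmembrane glycoprotein gene of lipid-laden macrophages and the most changed gene of the comparison, had levels of 10.63, 10.70, 9.87 and 10.63 in Npc1-/- mice, against 5.29, 5.23, 5.47 and 5.20 in Npc1+/+ mice. All 4 Npc1+/+ values were under 5.54, and the difference was 5.16 ± 0.16, or 35.7-fold (adjusted p = 6.44e-27). Mmp12, the macrophage elastase, had levels of 9.87, 9.88, 9.01 and 9.90 in Npc1-/- mice, against 5.41, 5.44, 5.84 and 5.19 in Npc1+/+ mice. It rose by 4.19 ± 0.19, with 1 Npc1+/+ liver above 5.54. Clec7a encodes Dectin-1, a receptor for fungal glucans, and had levels of 9.43, 9.24, 8.50 and 9.46 in Npc1-/- mice, against 5.57, 5.45, 5.35 and 5.48 in Npc1+/+ mice. Its difference was 3.69 ± 0.18. In each of these genes Npc1-/- mouse 3 was the lowest of its group and still lay far above all Npc1+/+ mice.

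Genes of the list that handle lipid rose as well, but whole liver does not show which cells carried these rises. Lpl, lipoprotein lipase, which frees fatty acids from lipoproteins and is low in adult hepatocytes, had levels of 9.52, 9.92, 10.23 and 9.64 in Npc1-/- mice, against 7.98, 6.95, 6.94 and 6.97 in Npc1+/+ mice. Npc1-/- mouse 3 was here the highest of its group and Npc1+/+ mouse 1 stood above the other Npc1+/+ mice, and the difference was 2.61 ± 0.21 (6.12-fold). Fabp5, a fatty acid carrier, rose by 1.39 ± 0.26, and Trem2, a lipid-sensing receptor that signals through the adaptor encoded by Tyrobp, rose by 0.91 ± 0.12, with Tyrobp itself at 1.18 ± 0.11. The tetraspanin genes Cd63, a late endosomal marker, and Cd9 rose by 1.94 ± 0.27 and 1.46 ± 0.14. Itgax, which encodes the integrin CD11c, rose by 2.37 ± 0.16, and the galectin-3 gene Lgals3 by 2.40 ± 0.14. Plin2, a lipid droplet coat gene, and Apoe, the apolipoprotein that macrophages and hepatocytes both make, were the members without a call, at 0.13 ± 0.18 and 0.02 ± 0.07. Both were expressed strongly in every liver, Apoe between 13.47 and 13.65 in all 8.

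**Figure D2:**
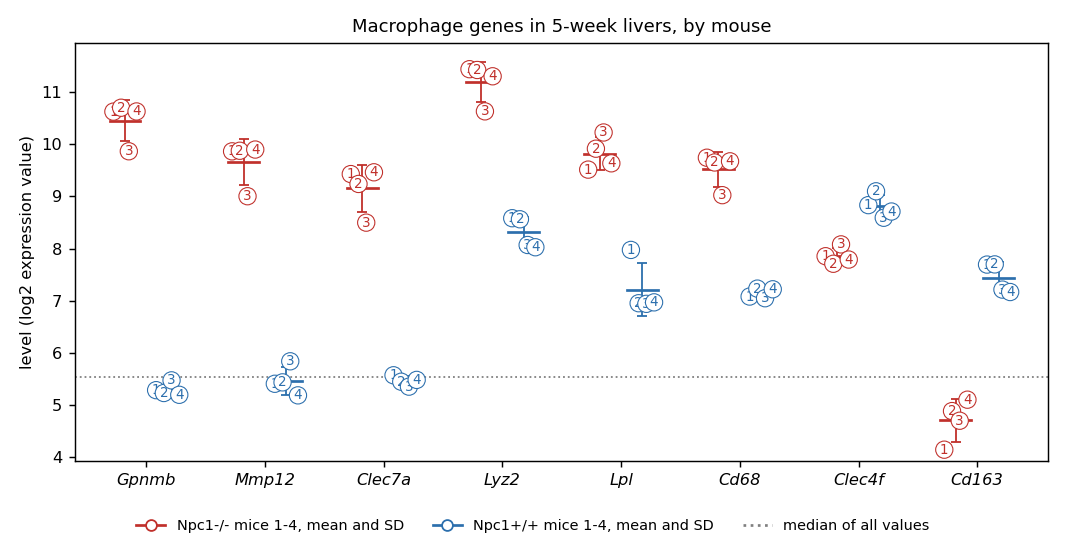
The levels (log2 expression value) of 8 genes of the macrophage lists are shown for each of 4 Npc1-/- mice (left, red) and 4 Npc1+/+ mice (right, blue), numbered by mouse. Group means and SDs are shown, with a dotted line at the median of all values, 5.54. The first 6 genes stand higher in every Npc1-/- mouse, with mouse 3 the lowest in Gpnmb, Mmp12, Clec7a, Lyz2 and Cd68 and the highest in Lpl, while Clec4f and Cd163 stand lower in every Npc1-/- mouse.

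Among 21 tested genes of macrophages in general 14 rose and 0 fell (median 0.70). Lyz2, lysozyme of myeloid cells, had levels of 11.44, 11.43, 10.63 and 11.30 in Npc1-/- mice, against 8.58, 8.56, 8.07 and 8.03 in Npc1+/+ mice, a difference of 2.89 ± 0.16. Cd68, a lysosomal glycoprotein of macrophages, had levels of 9.74, 9.65, 9.03 and 9.67 in Npc1-/- mice, against 7.08, 7.23, 7.05 and 7.22 in Npc1+/+ mice and rose by 2.38 ± 0.12. The pore-forming perforin-2 gene Mpeg1 rose by 1.56 ± 0.12, Laptm5, a lysosomal membrane protein of blood cells, by 1.62 ± 0.13, and the leukocyte genes Cd53 and Ptprc (CD45) by 1.53 ± 0.13 and 0.66 ± 0.10. Surface genes that are used to count liver macrophages were not called: Adgre1, a classic macrophage surface marker, had a difference of 0.27 ± 0.13 (adjusted p = 0.176), Csf1r, the receptor that keeps macrophages alive, 0.13 ± 0.10 (adjusted p = 0.444), and the mannose receptor gene Mrc1 0.14 ± 0.09 (adjusted p = 0.348). The list's mean level was 8.03, 8.04, 7.72 and 7.97 in Npc1-/- mice, against 6.97, 7.02, 6.85 and 6.87 in Npc1+/+ mice, with Npc1-/- mouse 3 the lowest of its group. Summed over the list on the linear scale, the levels ran from 7578 to 11039 in Npc1-/- mice and from 3387 to 3896 in Npc1+/+ mice. Such a sum is weighted toward members with high levels and large rises, such as Lyz2, and does not speak for each member.

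Resident Kupffer cells, the macrophages that settle in the liver before birth, are marked by a set of genes that moved both ways. Of 12 tested Kupffer cell genes 5 fell and 2 rose (median -0.04), beside 2.88% lower and 9.69% higher over all genes. Cd163, the scavenger receptor for haemoglobin bound to haptoglobin, had levels of 4.15, 4.89, 4.70 and 5.10 in Npc1-/- mice, against 7.69, 7.70, 7.22 and 7.17 in Npc1+/+ mice. All Npc1-/- values were under 5.54 and all Npc1+/+ values above 7, a difference of -2.73 ± 0.18 (adjusted p = 6.50e-16). Clec4f, a lectin gene used as a marker of Kupffer cells in mice, had levels of 7.86, 7.71, 8.08 and 7.79 in Npc1-/- mice, against 8.83, 9.10, 8.59 and 8.71 in Npc1+/+ mice and fell, with a difference of -0.95 ± 0.13. Folr2 (-0.85 ± 0.11), Timd4 (-0.58 ± 0.12), a receptor for dying cells, and the scavenger receptor gene Marco (-0.35 ± 0.11) fell as well. Clec1b (1.04 ± 0.13) and the interleukin-18 binding protein gene Il18bp (0.48 ± 0.10) rose. Vsig4, a complement receptor of Kupffer cells, was at -0.04 ± 0.17 and the iron exporter gene Slc40a1 at -0.03 ± 0.13. Summed over the list, the linear levels were 3741 to 4330 in Npc1-/- mice and 3934 to 4843 in Npc1+/+ mice, so these ranges overlapped. With 1 mouse left out, the call was lost for Marco without Npc1-/- mice 2 or 4 or Npc1+/+ mice 2 or 3 (adjusted p = 0.0562 to 0.0869).

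More of the 20 most raised genes follow, of which Lilr4b and Gpr137b are already counted in the foam macrophage list. Igfbp1, an IGF binding protein gene described below, was among the 20 too, at 2.51. Lilr4b and Lilrb4a, near-identical members of the leukocyte immunoglobulin-like receptor family, rose by 3.05 ± 0.18 and 1.99 ± 0.15, and Gpr137b, a lysosomal membrane protein gene, and its pseudogene Gpr137b-ps by 2.93 ± 0.18 and 2.83 ± 0.16. Probes of such pairs may read both copies. Renbp and Uap1l1, a pair of genes of amino sugar metabolism, rose by 2.11 ± 0.16 and 2.10 ± 0.12. Arhgap25, a gene expressed in leukocytes, rose by 1.99 ± 0.17, the myotubularin family gene Mtmr11 by 2.20 ± 0.17, and Ly6d by 2.16 ± 0.24. For Uap1l1 the levels were 8.63, 8.58, 8.19 and 8.40 in Npc1-/- mice, against 6.24, 6.41, 6.43 and 6.32 in Npc1+/+ mice. Every Npc1-/- mouse lay well above every Npc1+/+ mouse, and mouse 3 was the lowest of its group.

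Genes of antigen presentation and of leukocyte recruitment rose in part or in full. Of 8 genes of MHC class II presentation with a probe set 5 were tested, and all 5 rose (median 0.82). Among them were the class II chain genes H2-Aa (1.17 ± 0.16) and H2-Eb1 (0.71 ± 0.13) and Cd74 (0.82 ± 0.17), the invariant chain that guards the peptide groove. Ctss, cathepsin S, which cuts the invariant chain, had levels of 10.70, 10.73, 9.99 and 10.76 in Npc1-/- mice, against 8.44, 8.38, 8.00 and 8.06 in Npc1+/+ mice and rose by 2.32 ± 0.14. It is 1 of these 5 genes and is also counted among the general macrophage genes and the cathepsins. Of 14 tested genes of chemokines and their receptors 7 rose and 2 fell, beside 9.69% higher and 2.88% lower over all genes. Ccl3, an attractant of macrophages, had levels of 5.60, 6.28, 6.28 and 5.96 in Npc1-/- mice, against 4.23, 4.90, 4.38 and 4.18 in Npc1+/+ mice (1.61 ± 0.16), Cxcl10, an interferon-induced attractant of T cells, rose by 1.22 ± 0.22, and Cxcr4 by 1.30 ± 0.15. Ccl24, an eosinophil attractant made by resident macrophages, fell, with a difference of -0.81 ± 0.14, as did Cxcl12 (-0.45 ± 0.15), the ligand of CXCR4. A call was lost, with 1 mouse fewer, for Cxcl12 without Npc1-/- mice 2, 3 or 4 or Npc1+/+ mice 2, 3 or 4 (adjusted p = 0.0657 to 0.152).

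Of 18 tested genes of tumour necrosis factor, interleukin-1 and Toll-like receptor signalling 11 rose and 0 fell (median 0.48). Tlr13, a sensor of bacterial ribosomal RNA in mice, rose by 1.38 ± 0.15, and Ly96 and Ly86, whose products pair with Toll-like receptors, by 1.05 ± 0.18 and 0.82 ± 0.15. Of 8 tested Fc receptor and ITAM adaptor genes 4 rose and 0 fell, with Fcgr4 at 1.09 ± 0.15 and the kinase gene Syk at 0.85 ± 0.11. Of 6 tested NADPH oxidase genes 3 rose, and Cybb and Cyba, which encode the membrane core of the phagocyte enzyme, did so by 1.36 ± 0.13 and 1.46 ± 0.10. The interferon response list had 4 of 16 tested genes higher and 0 lower (median 0.15), beside 9.69% higher over all genes: Usp18 (1.06 ± 0.21), Ifit2, Ifi27l2a and Rsad2. Ifit1 (0.16 ± 0.26), Irf7 (0.08 ± 0.15) and Oas2 (0.13 ± 0.14), of the same response, were not called. Usp18 had levels of 8.20, 7.93, 7.23 and 7.97 in Npc1-/- mice, against 7.09, 6.92, 6.57 and 6.52 in Npc1+/+ mice, with mouse 3 the lowest of the Npc1-/- group and still above every Npc1+/+ mouse. Leaving out 1 mouse ended the call of Rsad2 without Npc1-/- mouse 2 or Npc1+/+ mice 2 or 4 (adjusted p = 0.0647 to 0.0979).

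Some markers of other blood cells were called, beside 12.6% of all genes. Of 6 tested T and natural killer cell genes 1 rose, the chemokine gene Ccl5 (0.50 ± 0.11), while the T cell receptor gene Cd3e was at -0.06 ± 0.12 and Cd8a at -0.15 ± 0.13. In the B cell list 1 of 5 rose, the adaptor gene Blnk (1.10 ± 0.16), which macrophages express as well, and Cd79b, a B cell receptor chain, was at 0.03 ± 0.12. The count of 1 was 2 without Npc1-/- mouse 3 or Npc1+/+ mouse 2. Of 11 tested neutrophil genes 3 rose: Lcn2 (1.03 ± 0.31), which hepatocytes also make, and the granule genes Ngp (0.62 ± 0.20) and Ltf (0.42 ± 0.13), of which Ltf stayed under 5.54 in all 8 livers. Without Npc1-/- mouse 2 no neutrophil gene was called, and without Npc1+/+ mouse 1, 2 or 4 there was 1 call. Of 9 erythroid genes Car2, carbonic anhydrase 2, rose (0.79 ± 0.16) and Car1 fell (-0.89 ± 0.16). Alas2, the haem enzyme of red cells, was at -0.10 ± 0.23. Without Npc1+/+ mouse 4 there were 2 higher erythroid genes. Single mice decided the call of Lcn2 without Npc1-/- mice 2, 3 or 4 or Npc1+/+ mouse 4 (adjusted p = 0.0543 to 0.0817), Ngp without Npc1-/- mouse 2 or Npc1+/+ mice 1, 2 or 4 (adjusted p = 0.0588 to 0.132) and Ltf without Npc1-/- mice 1 or 2 or Npc1+/+ mice 1, 2 or 3 (adjusted p = 0.0502 to 0.0849).

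Lysosomal genes rose across enzymes, membrane proteins and the proton pump. Some of them, such as Ctss, Ctsb, Ctsl, Atp6v0d2, Gpr137b, Laptm5 and Cd68, are also members of the macrophage lists. The lysosomal counts are therefore not separate from the macrophage counts, and whole liver does not show which cells carried these rises. Of 15 tested cathepsins and their partners 9 rose and 1 fell (median 0.50). Ctsd, cathepsin D, had levels of 11.91, 11.94, 11.53 and 11.86 in Npc1-/- mice, against 10.50, 10.76, 10.78 and 10.68 in Npc1+/+ mice, with no overlap, and a difference of 1.13 ± 0.09 (adjusted p = 7.20e-14). Lgmn (legumain), Ctsz, Ctsa, Ctsb and Ctsl rose by 1.06, 0.91, 0.75, 0.73 and 0.69. Ctsc, cathepsin C, which activates granule proteases, fell to levels of 8.74, 8.74, 8.64 and 8.73 in Npc1-/- mice, against 9.44, 9.78, 9.30 and 8.94 in Npc1+/+ mice (-0.65 ± 0.13). Glycosidases and sulfatases, the enzymes that trim sugars, had 9 of 19 tested genes higher and 0 lower (median 0.32). Hexa, a subunit of beta-hexosaminidase, led them with levels of 10.38, 10.35, 10.17 and 10.40 in Npc1-/- mice, against 8.99, 9.03, 8.82 and 8.98 in Npc1+/+ mice and a difference of 1.37 ± 0.09 (adjusted p = 4.16e-15). Gusb, beta-glucuronidase, rose by 0.90 ± 0.10, Gla, alpha-galactosidase A, by 0.85 ± 0.13, and Galc, which breaks down myelin galactolipids, by 0.83 ± 0.13.

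Proteins that handle lipid in the lysosome had 9 of 14 tested genes higher and 1 lower, Npc1 itself. Asah1, acid ceramidase, rose by 0.82 ± 0.11, Psap, the precursor of the saposins, by 0.73 ± 0.07, and Lipa, the acid lipase that frees cholesterol from its esters, by 0.55 ± 0.10. The levels of Psap were 12.58, 12.62, 12.30 and 12.57 in Npc1-/- mice, against 11.72, 11.88, 11.79 and 11.78 in Npc1+/+ mice. Of 17 tested membrane protein genes 11 rose and 0 fell (median 0.37), from Gpr137b and Slc15a3 (1.80 ± 0.12), a histidine and peptide transporter of macrophages, down to Lamp1 (0.26 ± 0.06), the abundant glycoprotein of the lysosomal membrane, with levels of 11.40, 11.34, 11.30 and 11.33 in Npc1-/- mice, against 11.01, 11.06, 11.16 and 11.11 in Npc1+/+ mice. In a fit of the 8 arrays alone Lamp1 was not called (adjusted p = 0.0560). The vacuolar ATPase, which acidifies the lumen, had 12 of 16 tested subunit genes higher and 0 lower (median 0.43). Atp6v1b2, the B subunit found in most tissues, had levels of 9.82, 9.82, 9.50 and 9.76 in Npc1-/- mice, against 8.70, 8.81, 8.57 and 8.60 in Npc1+/+ mice (1.06 ± 0.09). Atp6v0d2, a subunit of macrophages and osteoclasts, had levels of 8.84, 8.69, 7.54 and 8.69 in Npc1-/- mice, against 7.14, 6.64, 7.02 and 6.69 in Npc1+/+ mice, with mouse 3 lowest in its group, and a difference of 1.57 ± 0.24. Atp6v0a2, a subunit of the Golgi and endosomes, was at -0.06 ± 0.09.

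The master regulators of lysosomal genes, bHLH factors of the MiT/TFE family, showed small differences: Mitf rose by 0.44 ± 0.11, and Tfeb was at -0.05 ± 0.10 (adjusted p = 0.810) and Tfe3 at 0.24 ± 0.09 (adjusted p = 0.0855). Of 19 tested genes of these factors and of autophagy 4 rose and 0 fell (median 0.08), beside 9.69% higher over all genes. Those other than Mitf were Flcn, folliculin (0.63 ± 0.16), Gabarapl1 (0.49 ± 0.14) and the cargo receptor gene Sqstm1 (0.40 ± 0.10). Without Npc1-/- mice 2 and 3 the count was 2, and the calls of Mitf (adjusted p = 0.0791) and Sqstm1 (adjusted p = 0.173) were lost. Without Npc1-/- mouse 3 or Npc1+/+ mouse 1 there was 1 lower gene. MiT/TFE factors are known to bind an E-box, TCACGTGA, near the starts of lysosomal genes. It was searched on both strands, on which it reads the same, from 250 bases before to 50 bases after each gene start in RefSeq's promoters (GRCm38.p6). Of 62 tested genes of the lysosomal lists with a promoter 10 held it (16.1%), and 6 of these 10 were called higher: Atp6v0e, Atp6v1a, Cln3, Ctsa, Ctsd and Gla. Of all 62 genes, with the element or without it, 39 were called higher. Of all 27025 genes with a promoter 1.12% held it. The promoters of Ctsd, Gla and Ctsa, genes that rose, are shown because they carry the element, which stands in capitals. A match describes the letters only. They lie at chr7:142387778-142388077 (minus strand), chrX:134600956-134601255 (minus strand) and chr2:164833523-164833822 (plus strand), and read 5′ to 3′ on the strand of the gene.
Ctsd: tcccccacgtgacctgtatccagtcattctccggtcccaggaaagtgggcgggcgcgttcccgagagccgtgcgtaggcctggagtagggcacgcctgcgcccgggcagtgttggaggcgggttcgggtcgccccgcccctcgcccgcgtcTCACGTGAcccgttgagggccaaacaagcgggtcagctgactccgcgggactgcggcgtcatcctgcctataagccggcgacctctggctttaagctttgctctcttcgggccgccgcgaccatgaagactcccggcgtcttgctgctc
Gla: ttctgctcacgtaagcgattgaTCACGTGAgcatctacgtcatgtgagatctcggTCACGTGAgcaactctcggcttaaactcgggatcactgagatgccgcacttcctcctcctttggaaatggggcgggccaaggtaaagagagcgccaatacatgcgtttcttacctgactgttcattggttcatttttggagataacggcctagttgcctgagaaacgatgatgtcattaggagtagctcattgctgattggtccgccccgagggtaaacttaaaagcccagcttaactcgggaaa
Ctsa: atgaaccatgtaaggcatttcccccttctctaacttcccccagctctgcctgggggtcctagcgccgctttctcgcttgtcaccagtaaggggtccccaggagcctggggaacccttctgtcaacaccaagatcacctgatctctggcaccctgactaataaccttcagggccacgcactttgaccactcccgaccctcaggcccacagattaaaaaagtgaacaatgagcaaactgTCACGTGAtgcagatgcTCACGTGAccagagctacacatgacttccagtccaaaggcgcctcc
The Ctsd window holds the element at 1 place, and those of Gla and Ctsa hold it at 2 places each. Ctsd differed by 1.13, Gla by 0.85 and Ctsa by 0.75, all higher in Npc1-/- liver. Clcn7 and Mcoln1, lysosomal channel genes whose windows also hold the element, differed by 0.06 ± 0.12 (adjusted p = 0.827) and 0.13 ± 0.10 (adjusted p = 0.491).

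Cholesterol synthesis genes rose in both the early and the late steps. All 6 tested genes of the early mevalonate steps were higher (median 1.04), and of 11 tested genes of the later sterol steps 7 were higher and 0 lower (median 0.91). Sqle, squalene epoxidase, which catalyses the first oxygen-using step, had levels of 9.84, 9.91, 10.22 and 9.60 in Npc1-/- mice, against 7.51, 8.04, 7.92 and 8.39 in Npc1+/+ mice. Every Npc1-/- mouse lay above every Npc1+/+ mouse, and the difference was 1.93 ± 0.36, or 3.81-fold (adjusted p = 1.26e-04). Hmgcs1, HMG-CoA synthase, had levels of 11.27, 11.59, 11.85 and 11.24 in Npc1-/- mice, against 9.72, 10.31, 10.37 and 10.31 in Npc1+/+ mice (1.31 ± 0.27). Npc1+/+ mouse 1 was the lowest in it. Cyp51, lanosterol demethylase, had levels of 9.57, 9.49, 9.81 and 9.30 in Npc1-/- mice, against 7.91, 8.29, 8.16 and 8.56 in Npc1+/+ mice (1.31 ± 0.32). Pmvk (1.30 ± 0.20), Idi1 (1.06 ± 0.29), Fdps (1.01 ± 0.26) and Mvd (0.95 ± 0.22) of the early steps and Lss (1.26 ± 0.26), Nsdhl (1.02 ± 0.24), Dhcr7 (0.92 ± 0.21), Msmo1 (0.91 ± 0.29) and Fdft1 (0.88 ± 0.21) of the late ones were higher with no overlap between the groups. Mvk was higher by 0.42 ± 0.13 with overlapping ranges. Sc5d (0.62 ± 0.22, adjusted p = 0.0532) and Tm7sf2 (0.49 ± 0.17, adjusted p = 0.0571) of the late steps missed the threshold. Ebp, the isomerase of the late steps, was at 0.15 ± 0.12. With 1 mouse left out, the call was lost for Idi1 without Npc1+/+ mouse 1 (adjusted p = 0.0614), Msmo1 without Npc1-/- mice 1, 2 or 3 or Npc1+/+ mouse 1 (adjusted p = 0.0557 to 0.165) and Mvk without Npc1-/- mice 2 or 3 or Npc1+/+ mice 1 or 3 (adjusted p = 0.0636 to 0.150).

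The mean level of the late sterol genes was 10.13, 10.25, 10.51 and 10.04 in Npc1-/- mice, against 8.98, 9.49, 9.29 and 9.55 in Npc1+/+ mice. Npc1-/- mouse 3 had the highest mean and Npc1+/+ mouse 1 the lowest. Without Npc1-/- mice 2 and 3 together the calls fell to 2 of 6 early and 1 of 11 late genes, with Hmgcs1 still called at 1.08 and Sqle at 1.76 on the log2 scale. Of the genes that set the pathway's activity, Srebf2, which encodes SREBP-2, had levels of 8.37, 8.65, 8.72 and 8.47 in Npc1-/- mice, against 7.92, 8.05, 8.07 and 8.18 in Npc1+/+ mice and rose by 0.50 ± 0.11 (adjusted p = 0.00153). Insig1, whose product holds SREBP proteins in the endoplasmic reticulum, was at 0.54 ± 0.24 (adjusted p = 0.145), the escort gene Scap at 0.05 ± 0.10, and Mylip, whose product degrades the LDL receptor, at 0.29 ± 0.11. Stard4, a cytosolic sterol carrier gene, was at 0.01 ± 0.21.

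Promoters of sterol genes are known to carry sterol regulatory elements, to which SREBP-2 binds, and CCAAT boxes, to which its partner NF-Y binds. CCAAT, searched on both strands in the same windows, was found for all 14 sterol synthesis genes with a promoter, 10 of them called higher, and for 41.1% of all genes with a promoter. The form TCACNCCAC of the sterol element was found for 1 of the 14, Hmgcs1, and for 1.44% of all genes with a promoter. The windows of Hmgcs1, at chr13:119690101-119690400 (plus strand), and Cyp51, at chr5:4104648-4104947 (minus strand), show both kinds of case. Capitals mark CCAAT, which reads ATTGG where it lies on the other strand, and the sterol element.
Hmgcs1: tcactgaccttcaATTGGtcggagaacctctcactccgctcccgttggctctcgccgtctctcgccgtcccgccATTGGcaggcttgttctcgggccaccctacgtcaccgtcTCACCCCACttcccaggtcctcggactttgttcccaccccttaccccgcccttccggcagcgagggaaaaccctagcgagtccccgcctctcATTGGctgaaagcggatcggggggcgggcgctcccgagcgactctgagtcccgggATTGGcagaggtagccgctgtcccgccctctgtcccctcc
Cyp51: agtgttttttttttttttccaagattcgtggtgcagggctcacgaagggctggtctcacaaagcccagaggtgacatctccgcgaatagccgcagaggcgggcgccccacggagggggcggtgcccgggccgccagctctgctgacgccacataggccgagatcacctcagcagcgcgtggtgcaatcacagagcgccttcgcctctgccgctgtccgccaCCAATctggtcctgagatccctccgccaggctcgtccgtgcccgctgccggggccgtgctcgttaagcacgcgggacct
Hmgcs1 holds the CCAAT letters at 4 places around 1 sterol element and Cyp51 holds them at 1 place. The differences at 5 weeks were 1.31 for Hmgcs1 and 1.31 for Cyp51.

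Fatty acid synthesis genes were higher too, but unevenly among the mice. Of 13 tested genes 8 rose and 1 fell (median 0.62). Scd1, stearoyl-CoA desaturase, had levels of 12.61, 12.86, 12.73 and 12.29 in Npc1-/- mice, against 11.80, 10.79, 11.30 and 11.05 in Npc1+/+ mice, with no overlap (1.38 ± 0.27, adjusted p = 2.26e-04). Fasn, fatty acid synthase, had levels of 10.30, 11.20, 11.31 and 10.44 in Npc1-/- mice, against 9.81, 9.72, 10.11 and 10.03 in Npc1+/+ mice, highest in Npc1-/- mice 2 and 3 (0.89 ± 0.28). Acly, ATP citrate lyase, showed the same order, with levels of 9.68, 10.55, 10.83 and 9.93 in Npc1-/- mice, against 9.50, 9.52, 9.38 and 9.52 in Npc1+/+ mice (0.77 ± 0.21). Gpam, which starts triglyceride synthesis, had levels of 10.17, 10.52, 11.24 and 10.29 in Npc1-/- mice, against 9.80, 10.02, 10.01 and 9.89 in Npc1+/+ mice, with mouse 3 far above the rest (0.62 ± 0.16). Acaca, acetyl-CoA carboxylase 1, rose in every Npc1-/- mouse with no overlap, and Elovl6, Acacb and Me1 rose by 0.98 ± 0.29, 0.94 ± 0.22 and 0.57 ± 0.18. In a fit of the 8 arrays alone Acacb was not called (adjusted p = 0.0586). The member that fell was Thrsp, a lipogenic gene under thyroid hormone control, with levels of 10.59, 9.18, 9.67 and 10.23 in Npc1-/- mice, against 10.94, 11.82, 11.50 and 11.83 in Npc1+/+ mice and a difference of -1.61 ± 0.53 (adjusted p = 0.0347). Srebf1, the factor that drives these genes, was at -0.33 ± 0.27 (adjusted p = 0.492) and Mlxipl, the glucose-responsive factor ChREBP, at -0.35 ± 0.14 (adjusted p = 0.100). A call was lost, with 1 mouse fewer, for Fasn without Npc1-/- mice 2 or 3 or Npc1+/+ mice 1 or 2 (adjusted p = 0.0519 to 0.114), Acly without Npc1-/- mice 2 or 3 (adjusted p = 0.0612 to 0.0935) and Gpam without Npc1-/- mouse 3 (adjusted p = 0.0713). It was also lost for Elovl6 without Npc1-/- mice 2 or 3 or Npc1+/+ mouse 3 (adjusted p = 0.0538 to 0.0870), Me1 without Npc1-/- mice 2 or 3 or Npc1+/+ mice 1, 3 or 4 (adjusted p = 0.0566 to 0.102) and Thrsp without Npc1-/- mice 2 or 3 or Npc1+/+ mice 2, 3 or 4 (adjusted p = 0.0621 to 0.139).

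The count of 8 higher fatty acid genes was 3 without Npc1-/- mouse 3, 4 without mouse 2 and 2 without both. Those mice also had the lowest levels of the clock output gene Dbp in their group. Dbp, a factor that cycles over the day, had levels of 9.87, 6.51, 5.95 and 8.89 in Npc1-/- mice, against 7.89, 9.47, 9.68 and 9.22 in Npc1+/+ mice (-1.26 ± 0.66, adjusted p = 0.235). Npc1+/+ mouse 1 was lower than the other Npc1+/+ mice in it. The hour at which each mouse was killed is not given in the sources used here, and its part in these differences was not tested. Across the 16 tested clock genes 0 were called, by limma, with 5 lower and 0 higher at an unadjusted p under 0.05, and the list's mean level was 7.83, 7.03, 6.85 and 7.46 in Npc1-/- mice, against 7.48, 7.64, 7.86 and 7.79 in Npc1+/+ mice. The count of lower clock genes was 6 without Npc1-/- mouse 1, 1 without Npc1-/- mouse 4 and 3 without Npc1+/+ mouse 1.

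**Figure D3:**
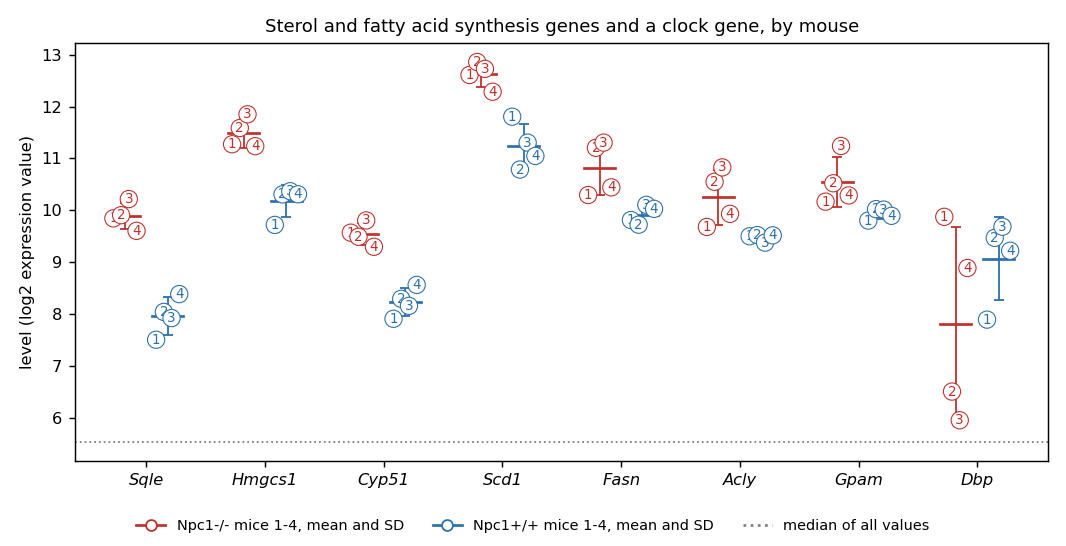
The levels (log2 expression value) of 7 genes of sterol and fatty acid synthesis and the clock gene Dbp are shown for each of 4 Npc1-/- mice (left, red) and 4 Npc1+/+ mice (right, blue), numbered by mouse, with group means and SDs. Npc1-/- mice 2 and 3 are the highest in Fasn, Acly and Gpam and the lowest in Dbp, where they stand at 6.51 and 5.95.

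Genes of lipid export and use were called in part. Of 12 tested targets of the liver X receptors, the sensors of oxysterols, 4 rose and 0 fell (median 0.15), beside 9.69% higher over all genes. The largest of these rises was that of Scd1, already counted among the fatty acid synthesis genes. Abcg1, a cholesterol exporter of macrophages, had levels of 8.13, 7.79, 7.43 and 7.96 in Npc1-/- mice, against 6.95, 7.11, 7.20 and 7.10 in Npc1+/+ mice (0.74 ± 0.10), and Pltp, phospholipid transfer protein, rose by 1.11 ± 0.13. Abca1, the exporter that starts HDL, was at -0.08 ± 0.10 (adjusted p = 0.702), and Abcg5 and Abcg8, whose products pump sterols into bile, were at -0.12 ± 0.15 and -0.15 ± 0.16. In the list of fatty acid oxidation and PPAR-alpha targets 1 of 20 rose and 0 fell: Cd36, the fatty acid and lipoprotein receptor of macrophages and hepatocytes, with levels of 9.77, 9.52, 9.68 and 9.70 in Npc1-/- mice, against 8.44, 8.49, 8.43 and 8.04 in Npc1+/+ mice (1.32 ± 0.19). That count was 2 without Npc1-/- mouse 1 or 3 or Npc1+/+ mouse 1, and 1 gene was lower without Npc1-/- mouse 1 or Npc1+/+ mouse 1. Cpt1a, the gate of mitochondrial oxidation, was at -0.22 ± 0.18 and Ppara at -0.38 ± 0.18. Pdk4, which rises on fasting, ranged widely, with levels of 5.98, 8.72, 7.77 and 7.07 in Npc1-/- mice, against 6.49, 5.80, 5.38 and 5.25 in Npc1+/+ mice (1.65 ± 0.58, adjusted p = 0.0506). Of 13 tested lipid droplet genes Plin3 rose (1.18 ± 0.13), while Fitm1 (-0.81 ± 0.25) and Fitm2 (-0.55 ± 0.15) fell. Without Npc1-/- mouse 3 there were 2 higher genes in this list. With 1 mouse left out, the call was lost for Fitm1 without Npc1-/- mice 1 or 3 or Npc1+/+ mice 2 or 3 (adjusted p = 0.0616 to 0.134) and Fitm2 without Npc1-/- mouse 3 or Npc1+/+ mouse 4 (adjusted p = 0.0666 to 0.105).

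Apart from Cd163, the genes that fell most were hepatocyte genes. Slco1a1, an uptake transporter for organic anions and steroid conjugates, had levels of 4.06, 4.93, 3.68 and 5.24 in Npc1-/- mice, against 7.45, 9.12, 9.11 and 8.85 in Npc1+/+ mice. No Npc1-/- value was above 5.54 and every Npc1+/+ value was above 7, a difference of -4.15 ± 0.32 (adjusted p = 1.07e-13). Ces3b, a carboxylesterase, had levels of 7.43, 7.62, 6.47 and 7.62 in Npc1-/- mice, against 10.08, 11.15, 10.78 and 11.36 in Npc1+/+ mice and fell, with a difference of -3.56 ± 0.36, a level 11.8-fold lower. Sult3a1, a sulfotransferase with a female bias, was flat near 2.9 in Npc1-/- mice and variable in Npc1+/+ mice, with levels of 2.89, 2.92, 2.92 and 2.91 in Npc1-/- mice, against 5.19, 7.59, 6.46 and 5.31 in Npc1+/+ mice (-3.23 ± 0.25). Serpina4-ps1, a serpin pseudogene of the liver, had levels of 4.72, 4.58, 4.63 and 4.40 in Npc1-/- mice, against 7.07, 8.75, 8.64 and 10.17 in Npc1+/+ mice (-4.08 ± 0.58). Its Npc1+/+ values were spread widely, lowest in mouse 1 and highest in mouse 4, and all stood above every Npc1-/- value. Wfdc21, Keg1 and Sult2a8 fell, with differences of -1.73 ± 0.25, -1.64 ± 0.28 and -1.61 ± 0.25, as did Carmil1 (-1.40 ± 0.18) and Slc10a2 (-1.42 ± 0.28), the sodium-driven bile acid uptake transporter of the ileum and bile ducts.

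**Figure D4:**
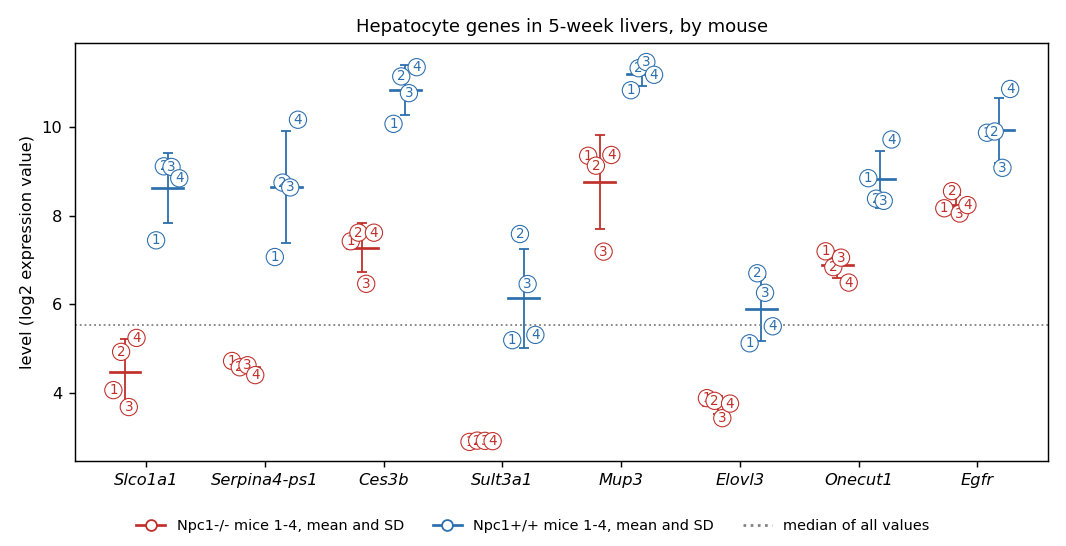
The levels (log2 expression value) of 8 hepatocyte genes are shown for each of 4 Npc1-/- mice (left, red) and 4 Npc1+/+ mice (right, blue), numbered by mouse, with group means and SDs and a dotted line at the median of all values, 5.54. All 8 genes stand lower in every Npc1-/- mouse, and Slco1a1, Serpina4-ps1, Sult3a1 and Elovl3 lie under the line in every Npc1-/- mouse.

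Genes that differ between the sexes in mouse liver were in part lower on both sides of that divide. Of 13 tested male-biased genes 10 fell and 0 rose (median -1.12), and of 12 tested female-biased genes 5 fell and 0 rose (median -0.72). The female-biased count was 3 without Npc1-/- mice 2 and 3. All mice here were female. Among the male-biased genes, Mup3, a major urinary protein that carries pheromones, had levels of 9.36, 9.14, 7.19 and 9.38 in Npc1-/- mice, against 10.84, 11.34, 11.48 and 11.19 in Npc1+/+ mice (-2.45 ± 0.33). Mouse 3 was the lowest by far, and Mup genes are so alike that their probes may read several. Elovl3, a fatty acid elongase, had levels of 3.88, 3.82, 3.43 and 3.76 in Npc1-/- mice, against 5.12, 6.70, 6.26 and 5.51 in Npc1+/+ mice (-2.18 ± 0.40), and Hsd3b5, a steroid reductase, fell, with a difference of -1.83 ± 0.41. Cyp7b1, the oxysterol hydroxylase, had levels of 7.34, 7.14, 7.49 and 7.29 in Npc1-/- mice, against 8.05, 8.94, 8.28 and 8.25 in Npc1+/+ mice (-1.07 ± 0.18), and Nudt7, a peroxisomal CoA hydrolase, fell, with a difference of -1.15 ± 0.24. Among the female-biased genes, A1bg had levels of 5.10, 6.33, 5.83 and 5.63 in Npc1-/- mice, against 7.49, 8.00, 7.92 and 6.32 in Npc1+/+ mice, in which Npc1-/- mouse 2 and Npc1+/+ mouse 4 met (-1.71 ± 0.40). Cyp2b13 and Cyp2b9, near-identical P450 genes, fell, with differences of -1.12 ± 0.29 and -0.53 ± 0.16, as did the transporter gene Slc22a26 (-0.91 ± 0.24). Cux2, a female-biased regulator, was at -0.27 ± 0.21 and Cyp3a44 at -0.05 ± 0.24. Leaving out 1 mouse ended the call of Cyp2b13 without Npc1-/- mouse 3 (adjusted p = 0.0583) and Cyp2b9 without Npc1-/- mice 3 or 4 or Npc1+/+ mouse 3 (adjusted p = 0.0639 to 0.123).

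Growth hormone sets much of that sex bias through STAT5 and drives Igf1. Of 17 tested genes of the axis 4 fell and 3 rose (median -0.13), beside 2.88% lower and 9.69% higher over all genes. Igfals, the subunit that holds circulating IGF-1, had levels of 9.38, 9.08, 8.93 and 8.63 in Npc1-/- mice, against 9.73, 9.92, 9.79 and 10.02 in Npc1+/+ mice (-0.86 ± 0.20), and Igf1 fell, with a difference of -0.42 ± 0.11. Igfbp1, an IGF binding protein that insulin holds down and fasting raises, had levels of 9.68, 11.11, 11.27 and 11.14 in Npc1-/- mice, against 9.06, 8.47, 8.17 and 7.48 in Npc1+/+ mice. Npc1-/- mouse 1 was nearest to the Npc1+/+ mice, and the difference was 2.51 ± 0.45 (adjusted p = 5.72e-05). Egfr, the epidermal growth factor receptor, had levels of 8.17, 8.56, 8.05 and 8.25 in Npc1-/- mice, against 9.88, 9.91, 9.09 and 10.87 in Npc1+/+ mice (-1.68 ± 0.29). The growth hormone receptor gene Ghr was at -0.17 ± 0.11 (adjusted p = 0.371), Stat5b at 0.36 ± 0.12 (adjusted p = 0.0502), and Bcl6, a repressor with a male bias, at 0.99 ± 0.53 (adjusted p = 0.246). Onecut1, the factor HNF6 that growth hormone also controls, had levels of 7.20, 6.84, 7.06 and 6.49 in Npc1-/- mice, against 8.85, 8.39, 8.34 and 9.73 in Npc1+/+ mice, with no overlap, and fell, with a difference of -1.93 ± 0.39.

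Some other hepatocyte regulators were called lower. Of 16 tested transcription factor and nuclear receptor genes 4 fell and 0 rose (median -0.35), beside 2.88% lower over all genes. Beside Onecut1 these were the bZIP factor gene Cebpb (-0.74 ± 0.23), Foxa1 (-0.42 ± 0.13) and Rxra (-0.33 ± 0.11). Hnf4a, the central hepatocyte factor, had levels of 10.21, 9.98, 10.07 and 10.14 in Npc1-/- mice, against 10.69, 10.14, 10.10 and 10.61 in Npc1+/+ mice (-0.29 ± 0.10, adjusted p = 0.0582). Cebpa was at -0.44 ± 0.20, the bile acid receptor gene Nr1h4 at -0.27 ± 0.14 and the xenobiotic receptor genes Nr1i3 and Nr1i2 at -0.54 ± 0.21 and -0.26 ± 0.16, none of them called. The count of 4 was 1 without Npc1-/- mouse 3 or Npc1+/+ mouse 4 and 2 without Npc1-/- mouse 2. With 1 mouse left out, the call was lost for Cebpb without Npc1-/- mice 1 or 3 or Npc1+/+ mice 2 or 4 (adjusted p = 0.0616 to 0.182), Foxa1 without Npc1-/- mice 2 or 3 or Npc1+/+ mice 3 or 4 (adjusted p = 0.0569 to 0.102) and Rxra without Npc1-/- mice 2 or 3 or Npc1+/+ mice 2, 3 or 4 (adjusted p = 0.0639 to 0.243).

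Among drug and steroid metabolising enzymes, 7 of 25 tested cytochrome P450 genes of families 1 to 3 fell and 1 rose (median -0.23). Cyp2c54 had levels of 9.04, 9.62, 8.74 and 9.79 in Npc1-/- mice, against 10.43, 10.60, 10.38 and 10.51 in Npc1+/+ mice (-1.18 ± 0.23), and Cyp2c50, Cyp2c38 and Cyp2c37 fell, with differences of -0.49 ± 0.14, -0.84 ± 0.25 and -0.37 ± 0.12. These Cyp2c genes are near copies, and how their probes share signal was not tested. Cyp2c55, the member that rose, had overlapping levels of 6.14, 7.27, 6.03 and 6.39 in Npc1-/- mice, against 6.55, 5.06, 4.84 and 5.24 in Npc1+/+ mice (1.03 ± 0.35). The count of 7 was 4 without Npc1-/- mouse 3 or Npc1+/+ mouse 3 and 3 without Npc1-/- mice 2 and 3. Carboxylesterases, which cut esters of drugs and lipids, had 4 of 11 tested genes lower and 0 higher, and Ces3a had levels of 11.62, 11.75, 9.39 and 11.99 in Npc1-/- mice, against 12.05, 12.38, 12.34 and 12.36 in Npc1+/+ mice, with mouse 3 far below the rest (-1.10 ± 0.35). Without that mouse the esterase count was 2, and without mouse 2 as well it was 1. Sulfotransferases had 2 of 7 lower and 1 higher. The one that rose, Sult1c2, had levels of 8.86, 8.42, 7.99 and 8.27 in Npc1-/- mice, against 6.88, 7.20, 6.89 and 6.73 in Npc1+/+ mice (1.46 ± 0.20). Glutathione S-transferases had 3 of 19 higher and 3 lower, beside 9.69% higher and 2.88% lower over all genes, with a list median of 0.00. The higher count was 1 without Npc1-/- mouse 2 and the lower count 1 without Npc1-/- mouse 1 or Npc1+/+ mouse 2 or 4. The calls that ended on leaving out 1 mouse were those of Cyp2c50 without Npc1-/- mouse 3 (adjusted p = 0.0508), Cyp2c38 without Npc1-/- mouse 3 or Npc1+/+ mouse 3 (adjusted p = 0.0774 to 0.161) and Cyp2c37 without Npc1-/- mice 1, 2 or 4 or Npc1+/+ mice 1, 2 or 3 (adjusted p = 0.0862 to 0.151). It was also lost for Cyp2c55 without Npc1-/- mice 2 or 4 or Npc1+/+ mice 2, 3 or 4 (adjusted p = 0.0628 to 0.218) and Ces3a without Npc1-/- mouse 3 or Npc1+/+ mice 2, 3 or 4 (adjusted p = 0.0606 to 0.349).

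Some bile acid genes were called, beside 9.69% higher and 2.88% lower over all genes. Of 14 tested synthesis genes 3 fell and 0 rose (median -0.21): Cyp7b1, Cyp27a1 (-0.43 ± 0.12), the mitochondrial sterol hydroxylase that opens this pathway, and Amacr (-0.43 ± 0.11), a racemase of side-chain shortening. Without Npc1-/- mice 2 and 3 together 1 of these was called. Cyp7a1, the rate-limiting enzyme of the classical pathway, ranged widely in Npc1-/- mice, with levels of 10.80, 9.91, 8.48 and 10.52 in Npc1-/- mice, against 9.41, 11.08, 11.17 and 11.42 in Npc1+/+ mice (-0.84 ± 0.52, adjusted p = 0.337). Of 15 tested transporters of bile acids and organic anions 2 fell and 1 rose. Slc22a7, an organic anion transporter, had levels of 8.05, 8.39, 8.58 and 8.77 in Npc1-/- mice, against 9.27, 10.06, 9.71 and 9.59 in Npc1+/+ mice (-1.21 ± 0.18), Slco1a1 fell as given above, and Abcc4, a basolateral exporter, rose to levels of 7.31, 7.22, 7.07 and 6.61 in Npc1-/- mice, against 6.25, 6.10, 6.24 and 6.26 in Npc1+/+ mice (0.84 ± 0.16). Without Npc1-/- mouse 3 there were 3 higher transporter genes. The bile salt export pump gene Abcb11 was at 0.10 ± 0.16 and the main uptake transporter gene Slc10a1 at -0.14 ± 0.09. A call was lost, with 1 mouse fewer, for Amacr without Npc1+/+ mouse 2 (adjusted p = 0.0523).

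Secreted plasma proteins of the acute phase split, with 6 of 21 tested genes higher and 2 lower (median 0.06). Over all genes 9.69% were higher and 2.88% lower. Saa2, serum amyloid A2, had levels of 8.02, 8.54, 7.35 and 8.13 in Npc1-/- mice, against 7.33, 6.87, 6.69 and 6.69 in Npc1+/+ mice (1.12 ± 0.28), while Saa4, the form made without inflammation, had levels of 9.59, 9.47, 9.34 and 9.70 in Npc1-/- mice, against 10.47, 10.38, 10.64 and 10.34 in Npc1+/+ mice (-0.93 ± 0.19). Haptoglobin (Hp), hemopexin (Hpx) and ceruloplasmin (Cp) rose by 0.24 ± 0.08, 0.28 ± 0.07 and 0.26 ± 0.07. C-reactive protein (Crp) was at 0.18 ± 0.09 and Orm1, orosomucoid 1, at -0.70 ± 0.27. The count of 6 was 3 without Npc1-/- mouse 2 or 4 and 2 without Npc1+/+ mouse 4, and the count of 2 was 1 without Npc1-/- mouse 1 or 2 or Npc1+/+ mouse 1 or 4. Of 24 tested complement and coagulation genes 4 fell and 0 rose (median 0.00), among them C9 (-0.88 ± 0.23), C8g and the mannose-binding lectin gene Mbl1 (-0.45 ± 0.11), and without Npc1-/- mice 2 and 3 the count was 2. Of iron genes Hmox1, haem oxygenase 1, had levels of 8.07, 7.85, 7.68 and 7.94 in Npc1-/- mice, against 7.09, 7.21, 7.20 and 6.97 in Npc1+/+ mice (0.77 ± 0.12), and the ferritin genes Ftl1 and Fth1 rose by 0.34 ± 0.06 and 0.21 ± 0.06. Alas1, the rate-limiting enzyme of hepatocyte haem synthesis, had levels of 11.72, 11.23, 8.81 and 11.26 in Npc1-/- mice, against 12.34, 12.10, 11.90 and 12.55 in Npc1+/+ mice. Mouse 3 stood far below its group, the difference was -1.47 ± 0.32, and without Npc1-/- mice 2 and 3 it was -0.73 and no longer called (adjusted p = 0.0941). In a fit of the 8 arrays alone the call was lost too (adjusted p = 0.0942). Leaving out 1 mouse ended the call of Hp without Npc1-/- mice 1, 2 or 4 or Npc1+/+ mice 2, 3 or 4 (adjusted p = 0.0609 to 0.102), Cp without Npc1+/+ mouse 4 (adjusted p = 0.0828) and C9 without Npc1-/- mouse 3 (adjusted p = 0.0803). It was also lost for Fth1 without Npc1-/- mouse 2 (adjusted p = 0.0566).

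Of 11 tested genes of glucose production and fasting 2 rose and 1 fell, beside 9.69% higher and 2.88% lower over all genes. The largest rise was that of Igfbp1, given above and also counted in the growth hormone list. Pck1, the enzyme that starts gluconeogenesis, had levels of 11.91, 12.03, 10.07 and 12.32 in Npc1-/- mice, against 12.38, 12.41, 12.34 and 12.45 in Npc1+/+ mice (-0.82 ± 0.24). Npc1-/- mouse 3 was the lowest, and the other Npc1-/- mice also lay under the lowest Npc1+/+ mouse. Ppargc1a, the fasting coactivator PGC-1 alpha, rose by 0.86 ± 0.22, and G6pc, the last enzyme of the pathway, was at -0.54 ± 0.49 (adjusted p = 0.565). Cyp26a1, which breaks down retinoic acid, had levels of 4.22, 4.16, 4.83 and 4.02 in Npc1-/- mice, against 4.97, 5.65, 5.37 and 7.36 in Npc1+/+ mice, and Npc1+/+ mouse 4 stood above the other Npc1+/+ mice (-1.53 ± 0.48). Single mice decided the call of Pck1 without Npc1-/- mouse 3 (adjusted p = 0.292) and Cyp26a1 without Npc1-/- mice 1, 2 or 4 or Npc1+/+ mouse 4 (adjusted p = 0.0541 to 0.210).

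Many matrix, membrane repair and antioxidant genes rose. Of 21 tested genes of collagens and stellate cells 10 rose and 0 fell (median 0.27), with Col1a1 at levels of 8.89, 8.80, 8.81 and 8.59 in Npc1-/- mice, against 8.10, 8.10, 8.38 and 8.14 in Npc1+/+ mice (0.59 ± 0.14), Col3a1 at 0.55 ± 0.12 and Vim, vimentin of mesenchymal cells and macrophages, at 1.15 ± 0.11. Acta2, the smooth muscle actin that marks activated stellate cells, was at -0.13 ± 0.34 (adjusted p = 0.869). Metalloproteinases and their inhibitors had 8 of 12 tested genes higher and 0 lower (median 0.63), among them Timp2 (0.71 ± 0.10), Mmp14 (0.78 ± 0.14) and the urokinase gene Plau (1.11 ± 0.11). Of 14 tested annexin and S100 genes 7 rose and 0 fell (median 0.41). Anxa1 had levels of 8.18, 8.15, 7.54 and 8.03 in Npc1-/- mice, against 6.81, 6.74, 6.45 and 5.86 in Npc1+/+ mice (1.51 ± 0.18), Anxa2, Anxa3 and Anxa5 rose by 1.44, 1.35 and 1.32, and Anxa4 by 0.41. Of 11 tested targets of NRF2, the regulator of antioxidant genes, 7 rose and 0 fell (median 0.43). Nqo1, a quinone reductase, had levels of 7.03, 7.45, 7.66 and 7.05 in Npc1-/- mice, against 6.55, 6.79, 6.56 and 6.33 in Npc1+/+ mice (0.74 ± 0.17), and Srxn1 and Gclc, the rate-limiting subunit gene of glutathione synthesis, rose by 0.77 ± 0.17 and 0.68 ± 0.16. Without Npc1-/- mice 2 and 3 the NRF2 count was 2.

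Stress and cell cycle genes showed a partial rise. Atf3, a stress-induced factor, had levels of 7.46, 7.99, 7.38 and 7.63 in Npc1-/- mice, against 6.33, 5.95, 5.70 and 5.99 in Npc1+/+ mice (1.62 ± 0.19), and Klf6 and Jun rose by 1.43 ± 0.18 and 0.81 ± 0.22, while Fos was at -0.09 ± 0.16. Of 16 tested immediate early genes 4 rose and 1 fell, beside 9.69% higher and 2.88% lower over all genes. Without Npc1-/- mouse 2 the count of 4 was 2. Of 21 tested cell cycle genes 8 rose and 0 fell (median 0.43). Mki67, the proliferation antigen, had levels of 6.04, 6.95, 6.66 and 6.20 in Npc1-/- mice, against 5.70, 5.73, 5.46 and 5.21 in Npc1+/+ mice (0.94 ± 0.16), and Top2a, a DNA topoisomerase of dividing cells, had levels of 5.92, 6.38, 6.56 and 5.68 in Npc1-/- mice, against 5.58, 5.44, 4.83 and 5.02 in Npc1+/+ mice (0.92 ± 0.17). Both were highest in Npc1-/- mice 2 and 3, and without these mice 2 of 21 genes were called. Which cells divided cannot be read from whole liver. Of 11 tested glycolysis genes 4 rose, led by Hk3 (0.98 ± 0.10), a hexokinase of myeloid cells. The calls that ended on leaving out 1 mouse were those of Jun without Npc1-/- mouse 2 (adjusted p = 0.0794).

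Several hepatocyte functions gave 1 call or none, beside 9.69% higher and 2.88% lower over all genes. Of 24 tested respiratory chain genes 0 were called (limma, 1 higher and 1 lower at an unadjusted p under 0.05), with a median of -0.01, and 1 was higher without Npc1-/- mouse 4 or Npc1+/+ mouse 4. The urea cycle had 0 of 7 (0 higher and 1 lower unadjusted) and the amino acid response 0 of 11 (1 higher and 0 lower unadjusted), with 1 higher without Npc1-/- mouse 3. In the list of endoplasmic reticulum stress 1 of 17 fell, Herpud1, with levels of 11.65, 11.50, 9.87 and 11.74 in Npc1-/- mice, against 12.18, 11.82, 11.59 and 11.81 in Npc1+/+ mice (-0.66 ± 0.22), and the chaperone gene Hspa5 had levels of 11.52, 11.74, 11.72 and 11.65 in Npc1-/- mice, against 12.21, 11.38, 11.09 and 11.54 in Npc1+/+ mice (0.10 ± 0.20). Npc1+/+ mouse 1 was the highest of all 8 in Hspa5. Of 16 tested genes of sinusoidal endothelium 1 rose, Lyve1 (0.51 ± 0.16), and Stab2 was at 0.02 ± 0.08. In the bile duct list Anxa4 rose and Onecut1 fell, and the keratin gene Krt19 was at -0.02 ± 0.11. A call was lost, with 1 mouse fewer, for Herpud1 without Npc1-/- mouse 3 or Npc1+/+ mice 1, 2 or 4 (adjusted p = 0.0697 to 0.496) and Lyve1 without Npc1-/- mice 2, 3 or 4 or Npc1+/+ mice 3 or 4 (adjusted p = 0.0552 to 0.115).

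Genes of exocrine pancreas, an organ next to the liver, were higher in 2 of the 8 livers, Npc1-/- mouse 4 and Npc1+/+ mouse 1: Ctrb1, chymotrypsinogen, had levels of 5.57, 5.54, 5.56 and 7.47 in Npc1-/- mice, against 7.70, 5.63, 5.71 and 5.63 in Npc1+/+ mice. None of the 10 tested pancreas genes was called (limma, 0 at an unadjusted p under 0.05), and the list's linear sum ran from 401 to 929 in Npc1-/- mice and from 424 to 1090 in Npc1+/+ mice. Without those 2 mice 1498 genes were called, beside 1588 with them, and Npc1 differed by -1.47. The 7 tested skeletal muscle genes had 0 calls as well. Of 3 adipose genes Fabp4, which macrophages also express, rose by 0.99 ± 0.19, and the 1 tested gene of kidney and adrenal gland was not called. Hepatocyte genes such as Apoe, Hp and Hpx were above 12 in all 8 livers.

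The comparison was then set beside the same one at 3 and 7 weeks, made with other mice, 4 of each genotype at each age. At 3 weeks, labelled pre-symptomatic, 1989 genes (15.7%) were called, and at 7 weeks 3195 (25.3%). Of the genes higher at 5 weeks 649 were also higher at 3 weeks (53% of the 5-week and 57.7% of the 3-week calls) and 883 at 7 weeks (72.1% and 48.9%). Of those lower, 150 were lower at 3 weeks (41.2% and 17.4%) and 220 at 7 weeks (60.4% and 15.8%). Calls in opposite directions numbered 6 between 5 and 3 weeks and 4 between 5 and 7 weeks. At all 3 ages 696 genes were called in 1 direction. The difference between ages, tested directly, passed the threshold for 101 genes (0.799%) at 5 minus 3 weeks, 71.3% of them positive, and for 367 (2.9%) at 5 minus 7 weeks, 43.1% positive. With arrays scaled by quantiles the positive share was 56.9% at 5 minus 3 weeks, and with arrays centred on their medians 53.8% at 5 minus 7 weeks. Of 783 genes called at 5 and not at 3 weeks 29 also passed for the difference, and of 481 called at 5 and not at 7 weeks 25 did, so most of those have not been shown to differ by age.

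**Figure D5:**
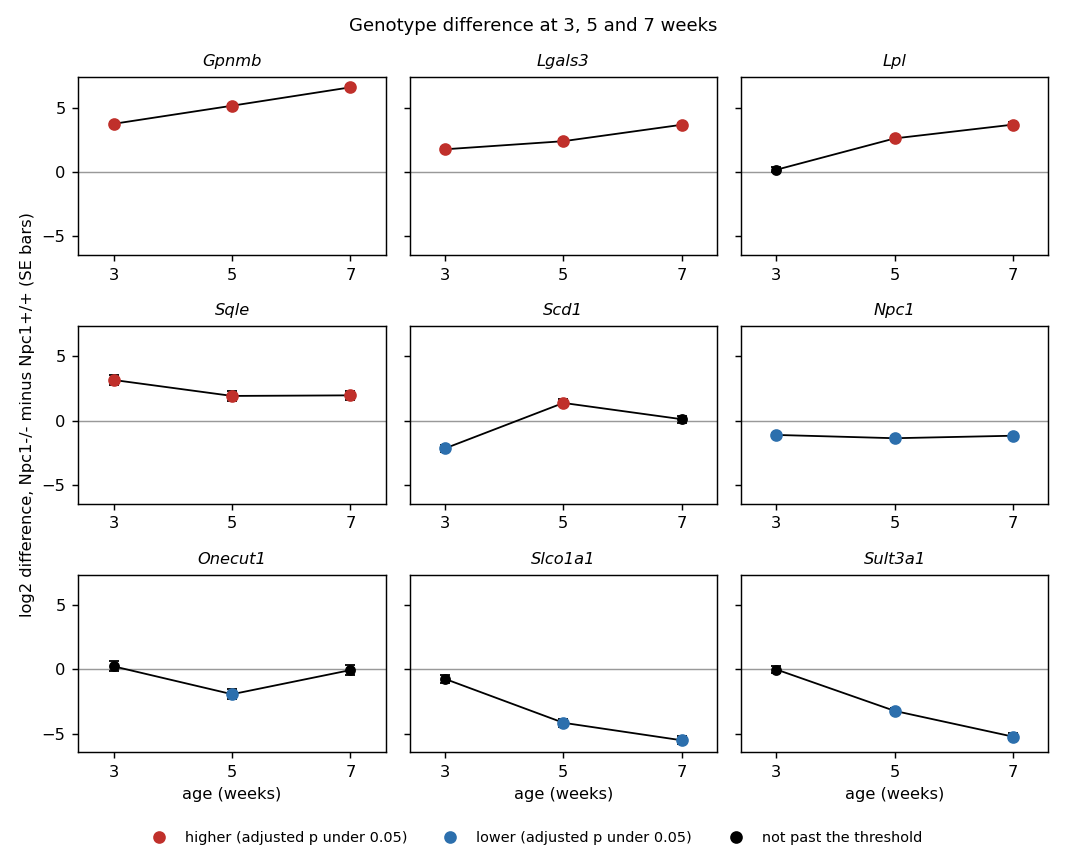
The genotype difference (log2, Npc1-/- minus Npc1+/+, bars show the SE) is plotted against age at 3, 5 and 7 weeks for 9 genes, red or blue where called and black where not. Gpnmb and Lgals3 lie higher at each later age, Lpl, Slco1a1 and Sult3a1 have no call at 3 weeks and a call at 5 and 7 weeks, Scd1 lies below 0 at 3 weeks and above it at 5 weeks, and Onecut1 is called at 5 weeks alone of these ages. Each age has its own mice, and the 5 minus 7 week value of Onecut1 missed the threshold.

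Part of the macrophage genes differed between genotypes by more at 5 than at 3 weeks or by less than at 7 weeks. Between genotypes Gpnmb differed at 3, 5 and 7 weeks by 3.75 ± 0.16, 5.16 ± 0.16 and 6.59 ± 0.16. The 5-week difference was larger by 1.41 ± 0.23 than at 3 weeks and its 5 minus 7 week value was -1.43 ± 0.23, both past the threshold. The foam macrophage list had 16, 17 and 17 of 19 genes higher at 3, 5 and 7 weeks (medians 0.94, 1.57 and 2.35). In the test of the difference between ages, 5 of the 19 passed for a larger value at 5 than at 3 weeks and 9 for a smaller one than at 7 weeks. Of the 21 general macrophage genes 2 passed for a larger value than at 3 weeks, 8 for a smaller one than at 7 weeks and 1 for a larger one. Lpl differed by 0.17 ± 0.21 at 3 weeks (adjusted p = 0.644) and by 3.68 ± 0.21 at 7 weeks, so that its 5 minus 3 week value was 2.44 ± 0.29 (adjusted p = 6.89e-07). Anxa1, a phospholipid-binding protein of phagocytes, was at 0.28 ± 0.18 at 3 weeks and 2.66 ± 0.18 at 7 weeks. Il7r, an interleukin-7 receptor chain, Capg, an actin-capping protein of macrophages, the motor gene Myo5a and Tm4sf19 were all higher at 5 weeks (1.73, 1.82, 0.98 and 0.71) and more so at 7 weeks, with 5 minus 7 week values of -1.83, -1.53, -1.48 and -1.42. Of the genes higher at 5 weeks 141 were past the threshold for a smaller difference than at 7 weeks and 25 for a larger one. Of the 16 vacuolar proton pump genes 7, 12 and 13 were higher at 3, 5 and 7 weeks, but 0 passed for the difference between 5 and 3 weeks and 1 for that between 5 and 7 weeks.

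Lipid synthesis genes were called in other numbers by age, and few of them passed for the difference between ages. The late sterol genes had 8, 7 and 1 of 11 higher at 3, 5 and 7 weeks (medians 1.08, 0.91 and 0.36), and the fatty acid genes 0, 8 and 1 of 13 (medians -0.17, 0.62 and -0.12). For the difference itself 0 and 2 late sterol genes and 2 and 3 fatty acid genes passed at 5 minus 3 and 5 minus 7 weeks, and the count of 8 at 5 weeks was 2 without Npc1-/- mice 2 and 3. Scd1 was lower at 3 weeks, at -2.15 ± 0.27, and its 5 minus 3 week value, 3.54 ± 0.38 (adjusted p = 1.01e-07), was the largest positive one among named genes. Sqle was higher at all 3 ages, by 3.17 ± 0.36, 1.93 ± 0.36 and 1.97 ± 0.36. Rdh11, a retinol dehydrogenase gene controlled by SREBP proteins, had levels of 9.07, 9.63, 10.04 and 9.23 in Npc1-/- mice, against 7.97, 8.18, 7.78 and 8.16 in Npc1+/+ mice at 5 weeks (1.47 ± 0.24) and a difference of 0.16 ± 0.24 at 7 weeks (5 minus 7 weeks 1.31 ± 0.34, adjusted p = 0.0219). Me1, malic enzyme, which makes NADPH for lipid synthesis, was lower at 7 weeks (-0.83 ± 0.18) and Depp1, a gene that fasting induces, was higher at 5 weeks (1.66 ± 0.42) and at -1.03 ± 0.42 at 7 weeks (5 minus 7 weeks 2.69 ± 0.60).

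Hepatocyte genes were first called lower than in Npc1+/+ liver at different ages. Mup3 was already lower at 3 weeks (-4.04 ± 0.33), as was Ces3b (-2.30 ± 0.36), while Slco1a1 (-0.74 ± 0.32, adjusted p = 0.113) and Sult3a1 (-0.01 ± 0.25) were not called there. Their 5 minus 3 week values were -3.41 ± 0.45 and -3.22 ± 0.35, and that of Serpina4-ps1 -3.24 ± 0.83. At 3 weeks Sult3a1 averaged 2.87 ± 0.13 in Npc1-/- mice and 2.88 ± 0.15 in Npc1+/+ mice (SD, n = 4 each). Slco1a1 averaged 3.56 ± 0.05 in Npc1-/- mice and 4.30 ± 0.67 in Npc1+/+ mice, so the group means of both genes were under 5.54 in both genotypes at that age. The 5-week levels of both genes, given above, were higher than these means in Npc1+/+ mice and not lower in Npc1-/- mice. Their gap thus went with a higher level in older Npc1+/+ mice, not with a loss in Npc1-/- mice. Onecut1 was at 0.24 ± 0.39 at 3 weeks and -0.05 ± 0.39 at 7 weeks (5 minus 3 weeks -2.17 ± 0.55, adjusted p = 0.0446). Its 5 minus 7 week value of -1.88 missed the threshold (adjusted p = 0.0513). Alas1 was at 0.44 ± 0.32 at 7 weeks (5 minus 7 weeks -1.91 ± 0.46). Slc22a7 and Sult2a8 were lower by more at 7 weeks, at -2.49 ± 0.18 and -2.93 ± 0.25 (5 minus 7 weeks 1.28 ± 0.25 and 1.32 ± 0.35, adjusted p = 0.00153 and adjusted p = 0.0281).

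Of the other genes that differed most between 5 and 3 weeks, Aqp8, a water channel, was higher at 5 weeks with levels of 10.44, 11.56, 11.52 and 10.79 in Npc1-/- mice, against 9.96, 10.06, 9.85 and 9.70 in Npc1+/+ mice (1.19 ± 0.36) and at -0.82 ± 0.36 at 3 weeks. Sytl5, a Rab27 effector gene, and Ccng2, a cyclin of arrest, rose by 1.50 ± 0.17 and 0.84 ± 0.22. Ppp1r3c, a glycogen-targeting phosphatase subunit, was at 0.45 ± 0.33 at 5 weeks and -2.30 ± 0.33 at 3 weeks, and Saa1 at 0.47 ± 0.32 and -1.38 ± 0.32. On the other side, Igfbp2, Fam102a, Nceh1, Prr15l and Myo5c were higher at 3 weeks (1.52, 1.05, 1.18, 1.07 and 1.23) and not called at 5 weeks (0.06, -0.20, -0.02, 0.05 and 0.25), and Calml4 rose by 0.56 ± 0.15 at 5 weeks and 1.62 ± 0.15 at 3 weeks. Between 5 and 7 weeks Sgk2, Plk3 and the small nucleolar RNA gene Snord14e differed too, with 5 minus 7 week values of 1.26, -1.58 and -1.93, and Snord14e, lower at 5 weeks, had overlapping levels of 9.16, 9.46, 8.38 and 8.03 in Npc1-/- mice, against 9.74, 9.43, 9.97 and 10.33 in Npc1+/+ mice. At 3 weeks all 10 tested pancreas genes were lower in Npc1-/- liver (median -2.15), and without 3-week Npc1+/+ mice 1 and 2 the 5 minus 3 week count was 34. It was 33 without 5-week Npc1+/+ mouse 4 and 220 without 5-week Npc1+/+ mouse 1, and the 5 minus 7 week count was 164 without 5-week Npc1-/- mouse 3 and 636 without 7-week Npc1+/+ mouse 1, so the lists of genes that differ by age depend on single mice. Single mice decided the call of Aqp8 without Npc1-/- mice 2 or 3 or Npc1+/+ mouse 4 (adjusted p = 0.0630 to 0.0949) and Snord14e without Npc1-/- mice 3 or 4 or Npc1+/+ mouse 4 (adjusted p = 0.0765 to 0.106).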

How the data were processed

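Per the labels' protocols, RNA was extracted from 1 liver per mouse with TRIzol and RNeasy columns, biotin-labelled and hybridised to Affymetrix arrays. The deposited values are log2 expression values, which the authors made with RMA in Partek 6.5, per the submitters' processing notes, and they were used with no further scaling. Of 35556 probe sets 21789 had 1 gene symbol, and those with several (1621) were not used. For the 999 genes with several probe sets, the one with the highest mean over all arrays was used, and their average was an alternative. Of 19938 genes, 12638 were tested, those with 4 or more of the 48 arrays over a level of 5.541, the overall median. limma 3.58.1 in R 4.3.3 fitted 12 groups of 4 arrays (both genotypes at 6 ages), with Benjamini-Hochberg adjustment. The number of arrays, 4 per group, limits the precision. Replicates are labelled as biological.

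Genes named are Npc1, the 20 highest and 20 lowest called genes at 5 weeks, the 10 highest and 10 lowest of each age difference, and members of the gene lists, without clone or predicted names. Members and lists were chosen with earlier results of these data known. Same-numbered mice gave no sign of deviating together, and no pairing was used in the main fit. Alternatives covered scaling, filters, thresholds, array weights, the groups fitted, a replicate block and leaving out mice.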

Additional observations from a re-analysis of the deposited data

Results flagged for a closer look

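In some groups of 4 mice 1 value stood far from the other 3, so that its gap to the nearest of them took up more than 0.829 of the group's whole range. Of 558 groups looked at 47 had such a value, and chance gives this in about 1 of 20 groups, so part of these may be chance. The share of the range is given beside each gene. Mouse 1 was the lowest of the 5-week Npc1-/- group in Ctsl (0.899) and Igfbp1 (0.895). Mouse 2 was the lowest of the 5-week Npc1-/- group in Cd79b (0.976). Mouse 2 was the highest of the 5-week Npc1-/- group in Jun (0.901). Mouse 3 was the lowest of the 5-week Npc1-/- group in Alas1 (0.83), Atp6v0d2 (0.887), Cd68 (0.873), Ces3a (0.86), Ces3b (0.831), Ctsc (0.859), Ctss (0.922), Cybb (0.896), Gpnmb (0.91), Herpud1 (0.871), Il7r (0.929), Lgals3 (0.831), Lgmn (0.891), Ly6d (0.98), Lyz2 (0.832), Mmp12 (0.961), Mup3 (0.889) and Tyrobp (0.947). Mouse 3 was the highest of the 5-week Npc1-/- group in Cyp2c37 (0.869). Mouse 4 was the lowest of the 5-week Npc1-/- group in Cd63 (0.86) and Igf1 (0.902). Mouse 4 was the highest of the 5-week Npc1-/- group in Ctrb1 (0.986). Mouse 1 was the lowest of the 5-week Npc1+/+ group in Ces3a (0.883), Cyp7a1 (0.83), Fdft1 (0.921), Hmgcs1 (0.907), Msmo1 (0.899), Sc5d (0.861) and Slco1a1 (0.838). Mouse 1 was the highest of the 5-week Npc1+/+ group in Ctrb1 (0.961), Lpl (0.972) and Sqstm1 (0.901). Mouse 2 was the lowest of the 5-week Npc1+/+ group in Abcc4 (0.848). Mouse 2 was the highest of the 5-week Npc1+/+ group in Blnk (0.83). Mouse 3 was the lowest of the 5-week Npc1+/+ group in Acly (0.843). Mouse 3 was the highest of the 5-week Npc1+/+ group in Col1a1 (0.85) and Cyp2c38 (0.961). Mouse 4 was the lowest of the 5-week Npc1+/+ group in Cd36 (0.869) and Cyp2c37 (0.85). Mouse 4 was the highest of the 5-week Npc1+/+ group in Elovl6 (0.833), Mitf (0.956) and Myo5c (0.834). The mean of the exocrine pancreas list also stood apart in 1 Npc1-/- mouse, mouse 4 (0.92). The genes in which Npc1-/- mouse 3 was lowest include macrophage genes and hepatocyte genes, and why this mouse stood apart was not tested.

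For some genes the genotype difference itself differed between ages by limma's test of the interaction, adjusted over all genes. Values are differences of log2 differences, Npc1-/- minus Npc1+/+. At 5 minus 3 weeks the value was positive for Scd1 (3.54), Ppp1r3c (2.75), Lpl (2.44), Aqp8 (2.01), Saa1 (1.86), Cyp2c38 (1.57), Gpnmb (1.41), Sytl5 (1.3), Ccng2 (1.24), Anxa1 (1.23), Mmp12 (1.11), Cyp2c50 (1.11), Gpr137b (1.04), Lyz2 (1.03), Ctss (0.98), Itgax (0.89), Acaca (0.83) and Anxa3 (0.8). It was negative for Slco1a1 (-3.41), Serpina4-ps1 (-3.24), Sult3a1 (-3.22), Onecut1 (-2.17), Igfbp2 (-1.46), Fam102a (-1.25), Nceh1 (-1.2), Calml4 (-1.06), Prr15l (-1.01) and Myo5c (-0.97).

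At 5 minus 7 weeks the value was positive for Depp1 (2.69), Sult3a1 (2), Mup3 (1.66), Me1 (1.4), Sult2a8 (1.32), Rdh11 (1.31), Slc22a7 (1.28), Sgk2 (1.26), Cyp3a44 (1.25), Ccng2 (1.23), Acacb (1.11), Pmvk (1.03), Mki67 (0.92), Tm7sf2 (0.89), Gpam (0.86), Stat5b (0.69), Ctsc (0.65), Ebp (0.64) and Mrc1 (0.48). It was negative for Snord14e (-1.93), Alas1 (-1.91), Il7r (-1.83), Plk3 (-1.58), Capg (-1.53), Myo5a (-1.48), Atp6v0d2 (-1.48), Gpnmb (-1.43), Tm4sf19 (-1.42), Lgals3 (-1.28), Gpr137b (-1.22), Anxa1 (-1.15), Cyba (-1.13), Atf3 (-1.12), Itgax (-1.11), Lpl (-1.07), Usp18 (-1.06), Cd68 (-1.06), Blnk (-1.06), Laptm5 (-1.04), Anxa3 (-1.04), Fabp4 (-0.97), Vim (-0.96), Timp2 (-0.94), Tyrobp (-0.93), Cxcr4 (-0.92), Arhgap25 (-0.9), Abcg1 (-0.88), Irf7 (-0.87), Slc15a3 (-0.82), Ctss (-0.82), Gpr137b-ps (-0.77), Syk (-0.71), Trem2 (-0.69), Cybb (-0.69), Cd53 (-0.68), Hmox1 (-0.61), Lgmn (-0.6), Csf1r (-0.59), Hk3 (-0.57), Gusb (-0.56), Ctsd (-0.47), Npc2 (-0.44) and Psap (-0.4). Both differences use the same 5-week arrays. Each age had its own mice, and effects of age cannot be told apart from differences between the cohorts killed at each age.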

How the results depend on the processing

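At 5 weeks the count of 1588 genes was 964 at an adjusted p under 0.01, 186 with at least a 2-fold difference and 839 without Npc1-/- mice 2 and 3, an alternative chosen after seeing the data, with 797 of the 1588 shared. With only the 8 arrays of the compared groups fitted the count was 1195 (958 higher and 237 lower), and with all 78 arrays it was 1858. Leaving out 1 mouse gave 1133 to 1564. The 5 minus 3 week count of 101 was 28 at an adjusted p under 0.01, 30 at 2-fold, 65 with no filter, 322 with array weights, 35 with only the compared groups, 192 with all 78 arrays, 34 without 3-week Npc1+/+ mice 1 and 2, and 33 to 220 with 1 mouse left out. Beside the extremes named above, it was 41 without 5-week Npc1-/- mouse 2, 59 without 5-week Npc1+/+ mouse 3, 57 without 3-week Npc1-/- mouse 3, and 54, 45 and 65 without 3-week Npc1+/+ mouse 1, 2 or 3. The 5 minus 7 week count of 367 was 128 at an adjusted p under 0.01, 60 at 2-fold, 575 with array weights, 204 with only the compared groups, 588 with all 78 arrays and 164 to 636 with 1 mouse left out, among these 237 without 5-week Npc1+/+ mouse 4 and 228 without 7-week Npc1+/+ mouse 3 or 4. At 3 weeks the count of 1989 was 1069 at an adjusted p under 0.01 and 159 at 2-fold, with 1354 to 1918 on leaving out 1 mouse, and at 7 weeks the count of 3195 was 392 at 2-fold, with 2687 to 3244. Calls among list genes numbered 87 at 2-fold and 231 to 275 with 1 mouse left out. Npc1 lay between -1.494 and -1.255. The cause of these shifts was not tested, apart from the smaller number of arrays or the stricter threshold that some alternatives use by construction.

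A replicate block gave 1526 genes at 5 weeks, 62 at 5 minus 3 weeks and 327 at 5 minus 7 weeks. Same-numbered mice did not deviate together (r = -0.243, -0.142, 0.0531 and -0.0909), and differently numbered mice reached r = 0.253. The numbers thus gave no sign of pairing, but so few mice cannot exclude it. With arrays scaled otherwise, the share of higher genes at 7 weeks, 56.5%, was 43.2% after centring on the medians and 47.2% after quantile scaling. At 5 weeks this share, 77.1%, was 73.5% after centring and 68.4% after quantile scaling, which called 537 genes lower beside 364 in the main setting. Of the 201 genes named and called at 5 weeks, 39 lost the call when some single mouse was left out, as given above. Without Npc1-/- mice 2 and 3 together 57 lost it: Acacb, Acly, Alas1, Amacr, Aqp8, C9, Calml4, Ccng2, Cebpb, Ces3a, Cp, Cxcl12, Cyp26a1, Cyp27a1, Cyp2b13, Cyp2b9, Cyp2c38, Cyp2c50, Cyp2c55, Cyp51, Depp1, Dhcr7, Elovl6, Fasn, Fdft1, Fdps, Fitm1, Fitm2, Foxa1, Fth1, Gclc, Gpam, Herpud1, Idi1, Jun, Lcn2, Lss, Ltf, Lyve1, Marco, Me1, Mitf, Msmo1, Mvd, Mvk, Ngp, Nqo1, Nsdhl, Pck1, Rsad2, Rxra, Slc22a26, Sqstm1, Srebf2, Srxn1, Thrsp and Top2a. In a fit of the 8 arrays alone 21 lost it: Acacb, Alas1, Amacr, C9, Cebpb, Ces3a, Cp, Cxcl12, Cyp2b9, Cyp2c37, Cyp2c38, Cyp2c55, Fitm2, Fth1, Gpam, Herpud1, Hp, Lamp1, Mvk, Pck1 and Rxra. No named gene called at 5 weeks, in the main setting or under an alternative, changed sign in the alternatives run. Named genes that were not called did, such as Dbp, at 0.31 without Npc1-/- mice 2 and 3. Called genes that are not named here were not looked at for a change of sign.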
